A study of Homo sapiens with 6 samples.

Results

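Glypicans and syndecans are the main families of heparan sulfate proteoglycans at the surface of human cells, and their transcripts were followed here in H9 human embryonic stem cells after knockdown of NPM1. The 10 genes (GPC1 to GPC6 and SDC1 to SDC4) were taken by symbol from a table of 62703 genes, and each symbol matched a single row. The set was selected on values of this same comparison, the low GPC6 level in the siNPM1 libraries among them. For that reason the values of the 10 genes are given as a description, without a p-value for any of them.

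The siNPM1 group holds 3 libraries of H9 cells that had received a small interfering RNA directed at NPM1, labelled siB23 after another name of its nucleolar protein, and the siControl group holds 3 libraries of H9 cells treated with a control duplex. No other allele, agent or genotype is named for either group, and the time after treatment and the duplex sequences are not given in the sources used here. The series design describes the replicates as biological, and all of them come from 1 cell line. RNA sequencing of total RNA gave TPM values, transcript levels scaled to transcript length and to the library total, which can be compared between genes of a library.

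In a glypican, a folded core protein is held on the outer membrane leaflet by a glycosylphosphatidylinositol (GPI) anchor; in a syndecan, the core spans the membrane and ends in a short tail that binds cytoskeletal and PDZ proteins. Both carry heparan sulfate, sulfated sugar chains that bind fibroblast growth factors, WNT, hedgehog and bone morphogenetic proteins and present them to their receptors. Pluripotent stem cells in culture depend on fibroblast growth factor signalling, for which heparan sulfate serves as a co-receptor. By sequence the glypicans form 2 branches, GPC3 with GPC5, and GPC1 with GPC2, GPC4 and GPC6, while SDC1 pairs with SDC3 and SDC2 with SDC4.

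NPM1 was measured at 3109, 2969 and 3132 TPM in siControl and at 173, 165 and 238 TPM in siNPM1, so the labels held in each library. siControl replicate 2 stood apart from the other controls: mitochondrially encoded genes took 23.3% of its TPM, against 11.0% and 11.1% in siControl replicates 1 and 3 and 18.7% to 21.6% in siNPM1. Fold changes that depend on it are therefore also given without it and against it alone. With that replicate as the only control the spread comes from the siNPM1 libraries alone and few genes can pass, so of that fit the fold changes are given and a missed threshold is not read. All 10 markers of primed pluripotent cells had a mean of at least 1 TPM, with a summed level of 4574 to 4899 TPM in the controls and 3888 to 4582 TPM in siNPM1. They did not move as one. POU5F1 stood at 1706 to 2266 TPM in the controls and 1375 to 1393 in siNPM1. NANOG stood at 86.9 to 93.7 and 67.0 to 71.0 TPM, and TDGF1 at 765 to 859 and 450 to 476 TPM. These markers were lower in every siNPM1 library. The others, SOX2, LIN28A, DNMT3B, PODXL, SALL4, ZIC2 and L1TD1, overlapped between the groups. SOX2 reached 239 TPM in siNPM1 replicate 1. DNMT3B stood at 277, 522 and 294 TPM in the controls and at 669, 511 and 507 TPM in siNPM1. The part of these shifts in the levels below was not tested. Depth cannot be read from TPM, so it is unknown, and differences are set against the spread between replicates.

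Promoter sequence set GPC6 apart from the other members that could be looked up. The RefSeq table of promoters (GRCh38.p14, 250 bases before to 50 after the annotated start) held 9 promoters of 8 members. GPC3 and SDC2 had no entry, so GPC6 could not be set against them. GPC6 and GPC4, members of the same branch that both stood lower after knockdown, are shown 5′ to 3′ on the gene's strand, with CG dinucleotides and the letters TATAAA in capitals.
GPC6 promoter: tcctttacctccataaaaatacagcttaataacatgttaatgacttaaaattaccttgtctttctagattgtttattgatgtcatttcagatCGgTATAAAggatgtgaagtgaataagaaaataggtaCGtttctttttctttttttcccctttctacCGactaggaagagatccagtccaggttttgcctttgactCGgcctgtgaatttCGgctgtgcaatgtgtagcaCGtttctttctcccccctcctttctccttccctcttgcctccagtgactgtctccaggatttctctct
GPC4 promoter: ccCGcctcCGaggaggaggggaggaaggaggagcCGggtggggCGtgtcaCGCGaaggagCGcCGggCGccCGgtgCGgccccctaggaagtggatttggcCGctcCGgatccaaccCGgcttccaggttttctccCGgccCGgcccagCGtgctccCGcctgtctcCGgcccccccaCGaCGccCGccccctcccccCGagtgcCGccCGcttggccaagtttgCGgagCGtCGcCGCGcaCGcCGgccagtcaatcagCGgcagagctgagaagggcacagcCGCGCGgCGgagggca
The first lies at chr13:93226557-93226856 on the plus strand and the second at chrX:133415440-133415739 on the minus strand.

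The GPC6 window had a GC content of 40.0% and 6 CG dinucleotides, while the GPC4 window had 74.7% and 37. The other 7 member promoters (GPC1, GPC2, GPC5, SDC3, SDC4 and 2 of SDC1) had GC contents of 65.0% to 84.0% and 23 to 46 CG dinucleotides. Over all 35116 promoters of the table the medians were 58.7% and 14, and 36.8% had as few CG dinucleotides as GPC6 or fewer. The letters TATAAA, searched on both strands, occurred in the windows of GPC6 and GPC5 and in 11.5% of all promoters; in GPC6 they began 155 bases before the annotated start. The letters GGGCGG, also searched on both strands, occurred in every member window except that of GPC6, and in 45.0% of all promoters. CCAAT was found on either strand in the GPC2 window and in 34.6% of all promoters. GGGCGG itself holds a CG dinucleotide, and TATAAA overlapped none of the others. Such matches describe the letters only.

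GPC4, GPC3 and GPC6 were the members whose levels differed most between the groups relative to the spread. GPC4, a glypican expressed in stem and neural progenitor cells, was the most abundant member in each siControl library, at 121, 106 and 112 TPM in replicates 1, 2 and 3. In siNPM1 it stood at 96.1, 63.9 and 62.6 TPM. All 3 siNPM1 libraries lay below all 3 controls, with siNPM1 replicate 1 nearest to them. The group means were 113 ± 7.85 TPM and 74.2 ± 19.0 TPM (SD, n = 3 each), a ratio of 0.657 and a log2 fold change of -0.62 (standard error 0.183) on the log2(TPM + 1) scale. In a bulk library, fewer cells with a transcript and less of it per cell cannot be told apart.

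GPC3, the glypican whose loss causes the Simpson-Golabi-Behmel overgrowth syndrome, stood at 35.5, 23.9 and 44.3 TPM in the controls and at 96.0, 66.3 and 73.6 TPM in siNPM1. Every siNPM1 library was above every control, and siControl replicate 2 was the lowest of the 6. The means were 34.6 ± 10.2 and 78.6 ± 15.5 TPM, a ratio of 2.27, with a log2 fold change of 1.19 (standard error 0.248). Against siControl replicates 1 and 3 the log2 fold change was 0.95, and against siControl replicate 2 alone it was 1.66.

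GPC6, which encodes a glypican of growth plate and nervous system whose loss causes omodysplasia, stood at 19.8, 17.3 and 13.7 TPM in the controls and at 4.74, 5.17 and 4.79 TPM in siNPM1. The knockdown libraries lay close together and well below the lowest control. The means were 16.9 ± 3.08 and 4.90 ± 0.235 TPM, a ratio of 0.289, with a log2 fold change of -1.59 (standard error 0.177). Its log2 fold change was -1.57 without siControl replicate 2 and -1.64 against that replicate alone.

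The remaining glypicans differed less. GPC2, an oncofetal glypican of the developing nervous system, stood at 27.1, 17.8 and 24.97 TPM in the controls and at 21.2, 20.2 and 17.7 TPM in siNPM1, so the groups overlapped. GPC1, a widely expressed glypican, stood at 6.46, 9.35 and 6.31 TPM in the controls and at 10.7, 10.1 and 9.19 TPM in siNPM1. For GPC1, siControl replicate 2 lay among the siNPM1 libraries, and the log2 fold change of 0.41 (standard error 0.190) came to 0.57 without that replicate and 0.09 against it alone. GPC5, the branch partner of GPC3, was listed at 0.05, 0.02 and 0.11 TPM in the controls and at 0.42, 0.09 and 0.02 TPM in siNPM1. These GPC5 levels were the lowest of the 10 members in every library, too low for the filter of a mean of 1 TPM, so 9 of the 10 members entered the fit across genes.

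Among the syndecans, SDC2 and SDC4 were the abundant ones. SDC2, the mesenchymal syndecan also called fibroglycan, stood at 67.5, 60.7 and 68.5 TPM in the controls and at 37.6, 58.0 and 50.7 TPM in siNPM1. All siNPM1 libraries were below the controls, siNPM1 replicate 1 by the widest margin, with a log2 fold change of -0.44 (standard error 0.174) that came to -0.27 without siNPM1 replicate 1. SDC4, a syndecan of focal adhesions, stood at 68.6, 62.9 and 67.8 TPM in the controls and at 62.8, 79.5 and 79.1 TPM in siNPM1. Here siNPM1 replicate 1 lay just under the lowest control while the other siNPM1 libraries exceeded all controls, and the groups overlapped; the log2 fold change of 0.14 came to 0.25 without siNPM1 replicate 1 and to 0.09 without siNPM1 replicate 2 or 3.

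SDC1 and SDC3 were less abundant, and their differences depended on siControl replicate 2. SDC3, the long neuronal syndecan, stood at 6.58, 10.8 and 6.55 TPM in the controls and at 12.5, 11.6 and 11.3 TPM in siNPM1. The groups did not overlap, although siControl replicate 2 lay next to the siNPM1 libraries. SDC3 had a log2 fold change of 0.54 (standard error 0.214), of 0.76 without siControl replicate 2 and of 0.11 against it alone. SDC1, the epithelial syndecan CD138, stood at 12.97, 24.8 and 10.8 TPM in the controls and at 15.4, 19.2 and 17.2 TPM in siNPM1. The highest of these SDC1 values was that of siControl replicate 2. The log2 fold change of SDC1 was 0.17, and it changed sign with the controls used, from 0.51 against siControl replicates 1 and 3 to -0.50 against replicate 2; without siControl replicate 3 it was -0.06.

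**Figure D1:**
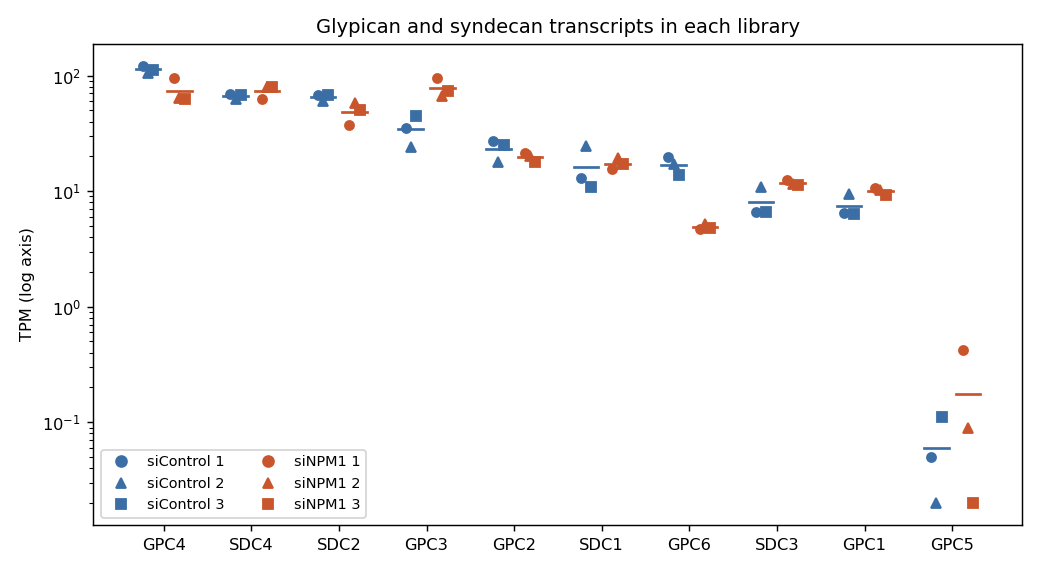
TPM (log axis) of the 10 genes in each of the 6 libraries, ordered by mean level; circles, triangles and squares are replicates 1, 2 and 3, blue siControl and orange siNPM1, and bars are group means. GPC4 and GPC6 are lower and GPC3 is higher in every siNPM1 library than in every control, while for SDC1 siControl replicate 2 is the highest library.

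The fit across all genes (limma on log2(TPM + 1), Benjamini-Hochberg adjusted p under 0.05) called 0 of the 9 tested members, beside 0.0254% of the 15768 genes tested. At an unadjusted p under 0.05 it counted 5 members, beside 19.7% of all genes. The groups did not overlap for 5 of the 9 tested members, GPC3 and SDC3 being higher and GPC4, GPC6 and SDC2 lower, beside 24.8% of all genes (16.2% higher and 8.55% lower). Without siControl replicate 2 the same fit counted 6 members past the threshold, 4 higher (GPC1, GPC3, SDC1 and SDC3) and 2 lower (GPC2 and GPC6), beside 37.0% of all genes. Against siControl replicate 2 alone it counted 0, beside 0.171%, a fit in which few genes can pass. Because the set was chosen with this comparison known, nothing is read from these counts.

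Both of these control sets were compared with the same siNPM1 libraries. GPC2 had a log2 fold change of -0.39 against siControl replicates 1 and 3 and of 0.13 against siControl replicate 2, and SDC1 also changed sign, as given above. SDC2 had -0.49 and -0.33, GPC4 -0.67 and -0.54, and SDC4 0.10 and 0.22 in the same order. The median log2 fold change was 0.14 over the tested members and 0.10 over all genes. Centring each library on its median moved the median of all genes to -0.02, and rescaling without mitochondrial and ribosomal protein genes moved it to 0.20. Under these scalings and quantile normalization, 5 members stayed positive and 4 negative; GPC3 ranged from 1.06 to 1.28, GPC4 from -0.75 to -0.54 and GPC6 from -1.74 to -1.58, while SDC4 ranged from 0.02 to 0.23 and SDC1 from 0.05 to 0.26.

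**Figure D2:**
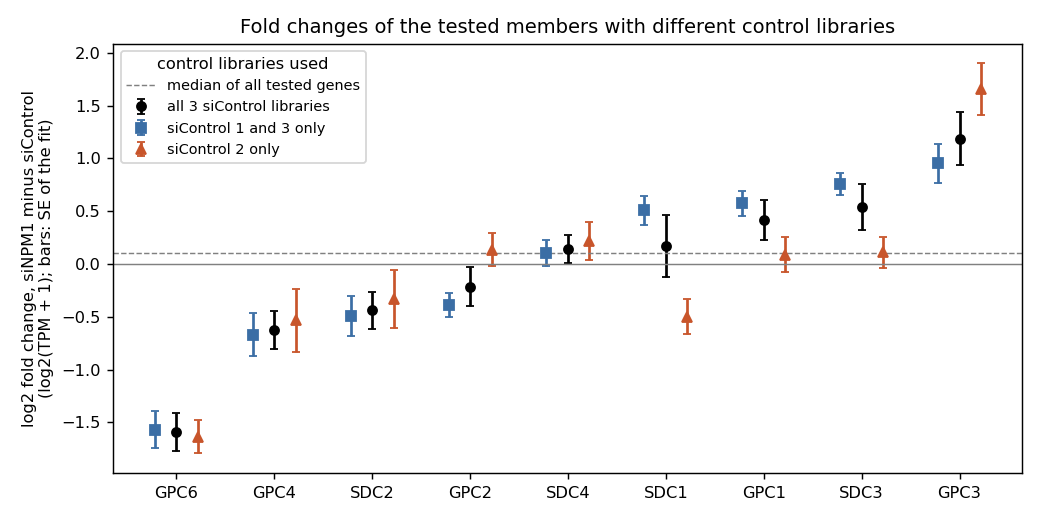
Log2 fold change (siNPM1 minus siControl, on log2(TPM + 1)) of the 9 tested members with all controls (black), without siControl replicate 2 (blue) and with that replicate alone (orange); bars are standard errors of the fit, and the dashed line is the median of all tested genes. GPC6 stays between -1.64 and -1.57 for all 3 choices, whereas SDC1 runs from -0.50 to 0.51.

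The summed level of the 10 genes differed little between the groups while its make-up did. The family total was 366, 333 and 354 TPM in the controls and 357, 334 and 326 TPM in siNPM1, means of 351 ± 16.5 and 339 ± 16.3 TPM (SD, n = 3 each). The ratio of these means was 0.966, and it was 1.02 when TPM was rescaled without mitochondrial and ribosomal protein genes, so the total had no firm direction. Glypicans supplied 57.5%, 52.3% and 56.7% of the total in the controls and 64.1%, 49.6% and 51.5% in siNPM1, with siNPM1 replicate 1 the highest.

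Shares within a library do not depend on how the library is scaled. GPC4 accounted for 33.1%, 31.7% and 31.5% of the family total in the controls and 26.9%, 19.1% and 19.2% in siNPM1. GPC3 made up 9.69%, 7.18% and 12.5% in siControl and 26.9%, 19.8% and 22.6% in siNPM1. The shares of GPC4 and GPC3 thus came together: their means were 32.1% and 9.79% in siControl, and 21.7% and 23.1% in siNPM1.

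GPC6 took 5.42%, 5.20% and 3.87% of the total in siControl and 1.33%, 1.55% and 1.47% in siNPM1. SDC2 took 18.5%, 18.2% and 19.3% in siControl and 10.5%, 17.4% and 15.6% in siNPM1, without overlap. SDC4 took 18.8%, 18.9% and 19.1% in siControl and 17.6%, 23.8% and 24.2% in siNPM1, with siNPM1 replicate 1 below the controls and the others above them. The 3 largest contributors in siControl were GPC4, SDC4 and SDC2, and in siNPM1 they were GPC3, GPC4 and SDC4.

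The small contributors kept small shares. GPC1 made up 1.77%, 2.80% and 1.78% in siControl and 3.00%, 3.03% and 2.82% in siNPM1, without overlap but with siControl replicate 2 close to the knockdown libraries. SDC3 made up 1.80%, 3.25% and 1.85% in siControl and 3.50%, 3.46% and 3.46% in siNPM1, with the same placing of siControl replicate 2. GPC2 made up 5.34% to 7.42% in siControl and 5.43% to 6.06% in siNPM1, and SDC1 3.04% to 7.42% and 4.32% to 5.76%, both overlapping.

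**Figure D3:**
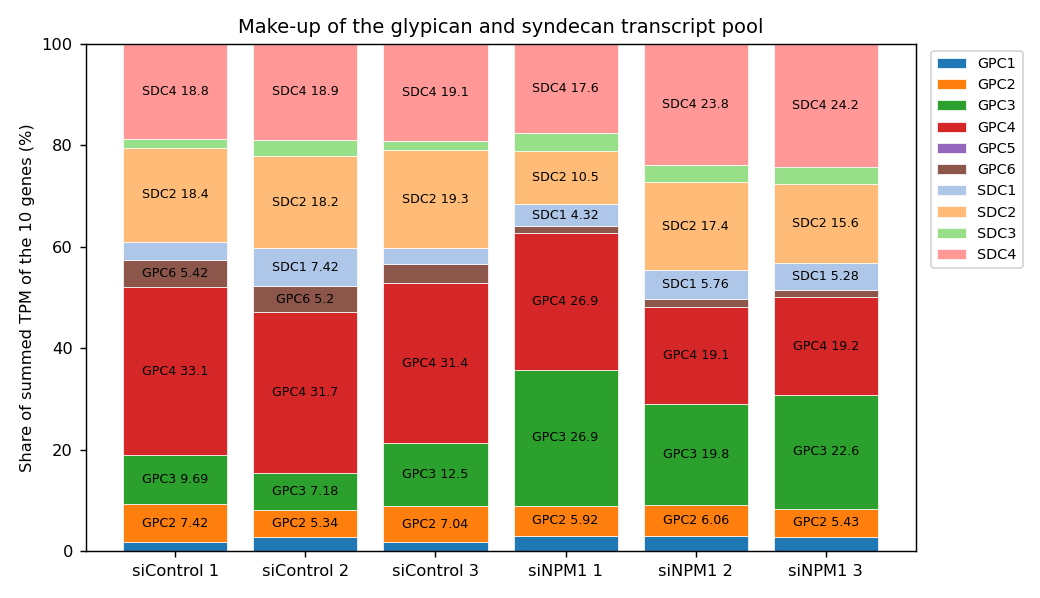
Share of each gene in the summed TPM of the 10 genes (percent), 1 bar per library; shares above 4% are labelled. The GPC4 segment takes 31.5% to 33.1% in siControl and 19.1% to 26.9% in siNPM1, and the GPC3 segment 7.18% to 12.5% and 19.8% to 26.9%.

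Within the glypicans alone, GPC3 held 16.9%, 13.8% and 22.1% of the glypican total in siControl and 41.9%, 40.0% and 43.8% in siNPM1. GPC4 held 57.7%, 60.7% and 55.5% in siControl and 41.9%, 38.5% and 37.3% in siNPM1. Within the syndecans, SDC2 held 43.4%, 38.1% and 44.6% in siControl and 29.3%, 34.5% and 32.1% in siNPM1. SDC4 held 44.1%, 39.5% and 44.1% against 48.9%, 47.2% and 49.9%, and neither pair of groups overlapped. Shares of a total are linked, so a lower SDC2 level by itself raises the SDC4 share. In TPM, SDC4 overlapped, and siNPM1 replicate 1 was below every control at 62.8 TPM.

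The ratio of GPC3 to GPC4 was 0.292, 0.226 and 0.397 in siControl and 0.999, 1.04 and 1.18 in siNPM1. The ratio of GPC3 to GPC6 was 1.79, 1.38 and 3.23 in siControl and 20.3, 12.8 and 15.4 in siNPM1. GPC4 and GPC6, although both lower in siNPM1, did not keep their ratio, which was 6.12, 6.11 and 8.14 in siControl and 20.3, 12.4 and 13.1 in siNPM1. The ratio of SDC4 to SDC2 was 1.02, 1.04 and 0.989 in siControl and 1.67, 1.37 and 1.56 in siNPM1. None of these ratios overlapped between the groups, siControl replicate 2 included. The ratio of SDC1 to SDC3 did overlap, at 1.97, 2.28 and 1.65 in siControl and 1.24, 1.66 and 1.53 in siNPM1. So did that of GPC6 to GPC5, where GPC5 was near 0 TPM. The members were chosen with this comparison known, so nothing is read from the separation of the other ratios.

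**Figure D4:**
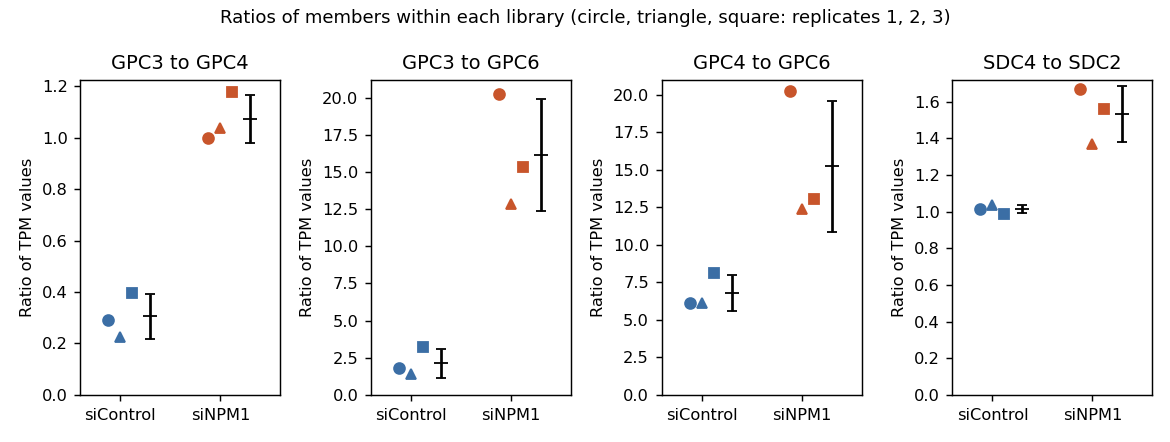
Ratios of TPM values within each library for 4 pairs of members; points are libraries (circle, triangle, square for replicates 1, 2, 3) and black bars are mean and SD (n = 3). The GPC3 to GPC4 ratio lies at 0.226 to 0.397 in siControl and at 0.999 to 1.18 in siNPM1.

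The order of the levels differed between the groups. In siControl GPC4 came first and separated from SDC4, SDC4 and SDC2 overlapped, and both separated from GPC3. From GPC3 down to GPC1, through GPC2, GPC6, SDC1 and SDC3, each member overlapped the next. In siNPM1 GPC3, GPC4 and SDC4 came first at means of 78.6, 74.2 and 73.8 TPM, each overlapping the next, and SDC2 followed at 48.8 TPM and separated from SDC4. GPC6 moved from rank 6 to rank 9, below SDC3 and GPC1, and separated from GPC1. GPC5 was last in both groups.

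Some of the members are neighbours in the genome, in positions of GENCODE release 29 on GRCh38. GPC4 (chromosome X, 133300103 to 133415490, minus strand) and GPC3 (chromosome X, 133535745 to 133985895, minus strand) lie 120 kb apart on the same strand. GPC5 (chromosome 13, 91398607 to 92873682, plus strand) and GPC6 (chromosome 13, 93226842 to 94407401, plus strand) lie 353 kb apart and span 1475 and 1181 kb. The members of each pair belong to different branches. On the X chromosome HS6ST2, a heparan sulfate 6-O-sulfotransferase, lies 339 kb downstream of GPC4. Among the tested genes, GPC4 thus lies between 2 other heparan sulfate genes.

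GPC4 was the lower one in this row of tested genes. HS6ST2 stood at 1.98, 2.99 and 1.79 TPM in the controls and at 4.04, 4.36 and 4.02 TPM in siNPM1, above every control, as GPC3 did. All 5 tested genes within 1 Mb of GPC4, GPC3 among them, had a positive log2 fold change, and so had all 7 tested genes within 1 Mb of GPC6, where 59.9% of all tested genes were positive. siControl replicate 2 lay within the siNPM1 range for MBNL3 and PHF6 near GPC4. The same held for AL356737.1, TGDS, GPR180 and SOX21-AS1 near GPC6. Of the neighbours of GPC6, 3 did not overlap between the groups (ABCC4, SOX21 and LINC00391, each higher, beside 16.2% of all genes). SOX21 stood at 3.51 TPM in siControl replicate 2, and at 28.7, 4.0 and 3.7 TPM in siNPM1 replicates 1, 2 and 3. Neighbours of the other members were mixed: positive and negative values came to 6 and 4 around GPC3, 10 and 6 around GPC1, 44 and 16 around GPC2, 2 and 1 around GPC5, 7 and 4 around SDC1, 3 and 1 around SDC2, 8 and 5 around SDC3 and 21 and 10 around SDC4. 0 of the tested neighbours of any member passed the threshold (limma, adjusted p). This window was chosen after the values of the members were known.

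Transcripts named after a member were listed at or near 0. GPC1-AS1 was listed at 0 to 0.3 TPM, and GPC3-AS1, GPC5-AS1, GPC5-AS2, GPC5-IT1, GPC6-AS1 and GPC6-AS2 were listed at 0 in every library. The strand setting of the counting is not given in the sources used here. GPC2 begins 0.191 kb from STAG3, a cohesin gene on the opposite strand. Both genes overlapped between the groups, with log2 fold changes of 0.41 for STAG3 and -0.21 for GPC2. STAG3 stood at 6.65, 6.0 and 8.04 TPM in the controls and at 14.4, 7.59 and 7.55 TPM in siNPM1. The sign of GPC2 changed against siControl replicate 2 alone, as given above.

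The genes whose levels ran most like a member were sought among the 10222 genes whose mean was 5 TPM or more, by the root mean square difference of their deviations from their own mean log2(TPM + 1) over the 6 libraries. For GPC6 these were PANCR (0.227), TNMD (0.230), PLBD1 (0.254), SULF1 (0.257) and ADCY2 (0.267), with log2 fold changes from -1.68 to -1.35. SULF1 is itself an enzyme of heparan sulfate, described below. For GPC4, the most abundant member, they were ACVR2B (0.0804), PCBP4 (0.0837), HLA-DQB1 (0.0897), FZD5 (0.0943) and HINT3 (0.0972). ACVR2B encodes an activin receptor and stood at 31.4, 24.8 and 28.7 TPM in the controls and 21.2, 14.2 and 15.1 TPM in siNPM1, and FZD5, a WNT receptor, at 31.0, 29.9 and 25.9 TPM and 26.5, 15.5 and 16.4 TPM. With 6 libraries, likeness of this kind is a description.

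The genes that build, modify, shed and use heparan sulfate were taken from 9 lists with 111 entries, of which 88 reached a mean of 1 TPM. Of these 88, 50 were higher in siNPM1 by their log2 fold change and 38 lower, with a median of 0.06. 0 passed the threshold (limma, adjusted p under 0.05, beside 0.0254% of all genes), 22 had an unadjusted p under 0.05 (19.7% of all genes had one), and 24 did not overlap between the groups (27.3%, beside 24.8%). Without siControl replicate 2, 23 passed as higher and 7 as lower, which is 34.1% beside 37.0% of all genes. These shares were near those of all genes.

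Of the enzymes that build the linker and extend the chain, 8 of 11 were positive and 3 negative, with 0 past the threshold and a median log2 fold change of 0.29. XYLT2, a xylosyltransferase that starts the linker, stood at 8.64 ± 0.975 TPM in the controls and 11.98 ± 1.15 in siNPM1 (log2 fold change 0.43, limma adjusted p = 0.237). PXYLP1, a phosphatase that clears the linker for extension, stood at 9.83 ± 1.97 and 13.4 ± 0.841 TPM (adjusted p = 0.250 in limma; SD, n = 3 each). Against siControl replicate 2 alone the median of this list was -0.02.

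Of the sulfotransferases and the epimerase, 8 of 10 were positive and 2 negative, with 0 past the threshold and a median of 0.37. HS6ST1, which adds 6-O-sulfate to the chain, stood at 9.93, 18.2 and 9.56 TPM in the controls and at 23.8, 21.0 and 18.6 TPM in siNPM1. siControl replicate 2 lay just under the lowest siNPM1 library (log2 fold change 0.75, standard error 0.257, limma adjusted p = 0.231). HS6ST2, given above, had a log2 fold change of 0.68 (standard error 0.211, limma adjusted p = 0.220). Both passed without siControl replicate 2 (limma, adjusted p = 0.00489 and 0.00932), a fit that 37.0% of all genes passed. The 2 genes had been picked by the smallest p, so nothing is read from this. Against that replicate alone their log2 fold changes were 0.20 and 0.36, and the median of the list was 0.12.

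The enzymes that remove 6-O-sulfate were split. SULF1, a secreted sulfatase of the cell surface, stood at 19.4, 15.9 and 17.8 TPM in the controls and at 4.16, 7.99 and 5.75 TPM in siNPM1. All SULF1 values in siNPM1 were well below the controls (log2 fold change -1.46, standard error 0.228, limma adjusted p = 0.149). Without siControl replicate 2 the log2 fold change was -1.53 (limma adjusted p = 0.00916, in a fit that 37.0% of all genes passed). Against that replicate alone it was -1.32. SULF2, its paralog, stood at 7.99, 10.4 and 9.02 TPM in the controls and at 9.87, 12.5 and 10.1 TPM in siNPM1, with overlap (log2 fold change 0.22, limma adjusted p = 0.464). Their list, of removal and remodelling, also holds HPSE and HPSE2, which are not sulfatases. In this list 3 of 4 entries were tested, 2 positive and 1 negative, with 0 past the threshold and a median of 0.17.

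Of the genes listed for shedding and GPI release, 5 of 12 were positive and 7 negative, with 0 past the threshold and a median of -0.06. The list is a broad one and also holds FURIN, PCSK5, PCSK6, PCSK7 and GDE1. MMP14, a membrane protease that cleaves syndecans, stood at 122, 84.5 and 104 TPM in the controls and at 67.2, 63.9 and 60.4 TPM in siNPM1 (log2 fold change -0.68, limma adjusted p = 0.195). ADAM10, a membrane sheddase, stood at 85.0, 91.1 and 67.6 TPM in the controls and at 114, 93.0 and 108 TPM in siNPM1 (log2 fold change 0.37, limma adjusted p = 0.246). Neither gene overlapped between the groups, MMP14 being lower and ADAM10 higher, the latter by a narrow margin. Both had been picked by the smallest p, so nothing is read from this. In the whole list 2 genes were higher and 3 lower without overlap, where 24.8% of all genes did not overlap.

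Of the proteins that bind syndecan tails or act beneath them, 7 of 11 were positive and 4 negative, with 0 past the threshold and a median of 0.06. EZR, which encodes the membrane-actin linker ezrin, stood at 116 ± 15.3 TPM in the controls and 182 ± 6.48 in siNPM1 (log2 fold change 0.66, limma adjusted p = 0.173). CTTN, which encodes cortactin, stood at 115 ± 7.88 and 143 ± 6.35 TPM (log2 fold change 0.31, limma adjusted p = 0.226; SD, n = 3 each). SDCBP, the PDZ protein syntenin that binds syndecan tails, differed by a log2 fold change of 0.06 and overlapped; it was named after its value was seen.

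The other proteoglycans that carry heparan sulfate split 3 positive to 3 negative among the 6 tested, with 0 past the threshold and a median of 0.31. AGRN, which encodes the basement membrane proteoglycan agrin, stood at 26.6, 23.5 and 28.5 TPM in the controls and at 42.4, 40.6 and 44.0 TPM in siNPM1. Its siNPM1 values were close together and above all controls, siControl replicate 2 being the lowest (log2 fold change 0.68, standard error 0.122, limma adjusted p = 0.169; 0.60 without siControl replicate 2 and 0.82 against it alone). TGFBR3, the TGF-β co-receptor betaglycan, stood at 1.39 ± 0.316 and 3.20 ± 0.870 TPM (SD, n = 3 each; log2 fold change 0.80, limma adjusted p = 0.218). The list also holds TMEM132A (log2 fold change -0.05), whose place in it is uncertain.

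Of the heparin-binding ligands, 6 of 13 were positive and 7 negative, with 0 past the threshold and a median of -0.04. FN1, which encodes fibronectin, stood at 136 ± 22.6 TPM in the controls and 72.1 ± 8.54 in siNPM1 (log2 fold change -0.90, limma adjusted p = 0.170), and HDGF, a heparin-binding growth factor, at 265 ± 13.9 and 217 ± 3.92 TPM (log2 fold change -0.29, limma adjusted p = 0.226; SD, n = 3 each). The suppliers of sulfate and sugar donors split 4 positive to 5 negative, with 0 past the threshold and a median of -0.05. Among them UXS1, which makes the xylose donor, had a log2 fold change of 0.56 (limma adjusted p = 0.235), and SLC35D1, a nucleotide sugar transporter, one of -0.56 (limma adjusted p = 0.237). Of the chondroitin sulfate enzymes, which use the same linker, 7 of 13 were positive and 6 negative, with 0 past the threshold and a median of 0.08; CHST12 and CHST15, both sulfotransferases, had log2 fold changes of 0.59 and 0.72 (limma adjusted p = 0.250 and 0.253).

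The named genes of these lists leaned on siControl replicate 2 to different degrees. Without it, 15 of the 18 passed the threshold in limma, and SULF2, ADAM10 and CHST12 did not. The 18 had been picked by the smallest p in a fit that holds the same libraries, so nothing is read from that count. Of all 88 tested genes of the lists 34.1% passed without it, beside 37.0% of all genes. The log2 fold change without that replicate and against it alone was 1.04 (limma adjusted p = 0.00546) and 0.07 for CHST15, which stood at 2.37, 5.12 and 1.91 TPM in the controls and at 5.57, 5.34 and 5.39 TPM in siNPM1. PXYLP1 had 0.57 and 0.13, XYLT2 0.51 and 0.27, and UXS1 0.71 and 0.26 in the same order. MMP14 had -0.81 and -0.40, FN1 -1.04 and -0.62, EZR 0.76 and 0.45, and SLC35D1 -0.65 and -0.37. TGFBR3 had 0.91 and 0.59, HDGF -0.33 and -0.20, ADAM10 0.46 and 0.20, CTTN 0.28 and 0.37, and CHST12 0.56 and 0.64, so these genes kept their sign against either control set.

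**Figure D5:**
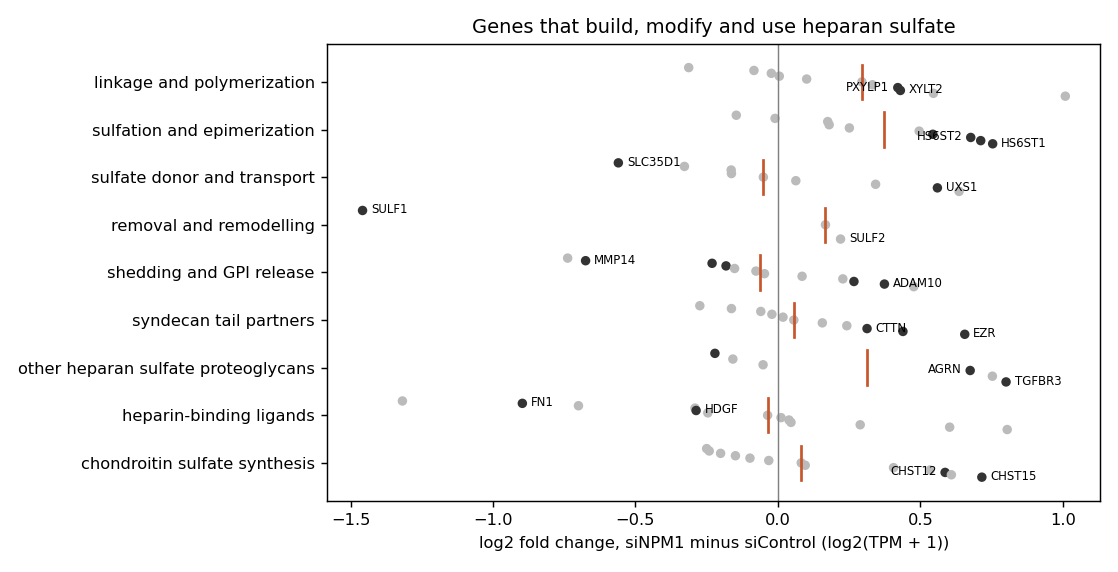
Log2 fold change (siNPM1 minus siControl, on log2(TPM + 1)) of the 88 tested genes of the 9 lists; dark points do not overlap between the groups, grey points do, and orange bars are list medians. SULF1 lies furthest to the left at -1.46, and the medians of the linker and sulfation lists lie at 0.29 and 0.37.

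Among the marker lists of other cell types, the sums of the neuroectoderm, trophoblast and stroma lists did not overlap between the groups. The 5 neuroectoderm markers summed to 71.3 to 87.8 TPM in the controls and 149 to 156 TPM in siNPM1, mostly from NES, which undifferentiated cells also express; PAX6 stood at 0.85 to 1.90 TPM in the controls and 1.16 to 7.87 in siNPM1, and SOX1 stayed at or under 0.47 TPM. OTX2 reached 45.2 TPM in siNPM1 replicate 1 and 4.92 TPM at most elsewhere. The 6 trophoblast markers summed to 4.22 to 4.41 TPM in the controls and to 19.2, 6.60 and 6.30 TPM in siNPM1. KRT7 was the largest part, at 3.44 to 3.64 TPM in the controls and 9.68, 5.36 and 5.55 TPM in siNPM1. TFAP2A reached 9.18 TPM in siNPM1 replicate 1 and 0.40 TPM at most elsewhere. GATA3 overlapped between the groups, and CGA was at 0 throughout. The 7 fibroblast and stroma markers summed to 404 to 432 TPM in the controls and to 133, 328 and 350 TPM in siNPM1, most of it THY1, which pluripotent cells carry. The other genes of that list did not follow THY1: COL1A1 stood at 5.72 to 9.70 TPM in the controls and 14.5 to 18.8 TPM in siNPM1, COL1A2 at 29.2 to 35.9 and 26.1 to 32.3 TPM, and DCN and LUM were at 0 in every library. The mesoderm and endoderm lists overlapped between the groups and stayed at or under 8.55 and 2.28 TPM. The part of these markers in the levels of the glypicans and syndecans was not tested.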

How the data were processed

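RNA sequencing values of 6 H9 libraries, 3 siControl and 3 siNPM1, were read from 1 table in which the authors deposited TPM values per gene; TPM sums to the same total in each library. Reads were placed on GRCh38 per the submitters' processing notes; no aligner, counter, annotation release or strand setting is given in the sources used here. The authors' 2 mean columns were not used. Values were analysed as log2(TPM + 1) over the 15768 genes whose mean reached 1 TPM, in limma 3.58.1 (R 4.3.3) with a variance trend, two-sided, with Benjamini-Hochberg adjustment and a threshold of 0.05, and group as the single term. TPM keeps no depth, so no counting interval can be given, and fold changes with the pseudocount of 1 understate changes of low genes. Summaries used Python 3.11.15. The fit was tested on simulated data with independent normal noise for each gene and no outlying library. That test therefore does not cover the part played by siControl replicate 2.

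The members and lists were chosen with earlier results of these data known. The named genes are NPM1, the 10 members, transcripts named after them, from each list the members past the threshold or the 2 with the smallest p, and the 5 genes most like GPC6 and the most abundant member; neighbours, STAG3, SDCBP, TMEM132A and single markers were named after their values were seen. Positions are those of GENCODE release 29, which holds 92.9% of the table's genes. Promoters are RefSeq's (GRCh38.p14). Alternatives covered pseudocounts, filters, scaling, the variance prior, array weights, the replicate number and each library in turn.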

Additional observations from a re-analysis of the deposited data

How the results depend on the processing

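The 4 genes past the threshold came to 9486 with array weights, 2 with a mean of at least 5 TPM, 1 without a filter, 7 without a variance trend, 27 against siControl replicate 2 alone, and 1 to 5833 when 1 library was left out, the highest count without siControl replicate 2; it was 11 without siNPM1 replicate 1 and 1 without siNPM1 replicate 3 or siControl replicate 1. The count of members past it was 0 in each fit except array weights (9) and the fits without 1 library, 0 to 6, the highest likewise. For the heparan sulfate lists it was 55 with array weights and 0 to 30 without 1 library, the highest again without siControl replicate 2. The cause was not tested. With the replicate number as a block, 1 gene passed. Deviations of same-numbered samples from their group means had Pearson r of 0.0652, 0.0814 and -0.0383 for numbers 1, 2 and 3. Samples with different numbers had r from -0.0851 to 0.0641. With 3 libraries per group and siControl replicate 2 apart from the others, these values cannot decide whether the numbers pair the samples. The family total ratio of 0.966 came to 1.025 rescaled without mitochondrial and ribosomal protein genes, 1.11 without GPC4, 1.018 against siControl replicate 2 alone and 0.940 to 0.986 without 1 library. In percentage points of the family total, the siNPM1 minus siControl difference without GPC4 in the sum was 8.45 for glypicans, -2.30 for GPC2, -5.27 for GPC6, -9.12 for SDC2 and -0.0418 for SDC4. Against siControl replicate 2 alone it was 0.147 for GPC1, 0.459 for GPC2, -2.30 for SDC1 and 0.219 for SDC3. Without 1 library it ranged from 11.4 to 14.9 for GPC3, -12.96 to -9.08 for GPC4, -3.86 to -3.08 for GPC6, -5.62 to -2.20 for SDC2, -4.91 to 2.32 for all glypicans and -0.364 to 1.82 for SDC1. Over all 17 alternative fits the log2 fold change stayed between -1.75 and -1.48 for GPC6, 0.94 and 1.66 for GPC3 and -0.86 and -0.52 for GPC4. Of the 18 genes named from the lists by rule, none changed sign in these fits. With array weights 18 passed, and 15 passed without siControl replicate 2. These genes had been picked by the smallest p of the main fit, so nothing is read from these counts.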
